A study of Rattus norvegicus with 20 samples.

Results

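The glutamate transporters, and the enzymes and carriers of the glutamine cycle, were followed in the accumbens shell, part of the ventral striatum and of the reward circuit. The set was chosen by gene symbol and held 9 genes (Slc1a1, Slc1a2, Slc1a3, Slc17a7, Slc17a8, Glul, Glud1, Slc38a1 and Slc38a2), in a platform whose gene table gives 14217 genes a probe set of their own. Of the 9, 8 were named by 18 probe sets, while Slc17a8, the vesicular transporter VGLUT3, was named alone by none and was not analysed here. All animals were alcohol-preferring (P) rats, selectively bred to drink ethanol by choice. The ethanol group (10 animals) had access to 15 and 30% ethanol in adolescence, and the water group (10 animals) had water alone. Both groups are of the same selected line, and the intake of single animals is not part of the labels used here. Each animal gave 1 array, so the comparison of the groups rests on 20 arrays.

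Glutamate released at a synapse is cleared by sodium-coupled transporters, mostly those of astrocytes. Astrocytes turn it into glutamine, which neurons take up again to make glutamate and GABA. The projection neurons of the accumbens are GABAergic, and most glutamatergic axons that reach them come from cell bodies elsewhere, in cortex, hippocampus, amygdala and thalamus.

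Values are log2 RMA values of a probe set, a group of probes for 1 transcript, and a difference is ethanol minus water on that scale. The 33.3% of probe sets that were dimmest (mean over arrays below 6.65) were left out of the tests. Above that level lay 15 of the 18 member probe sets, for 7 genes, and below it lay both of Slc17a7 and 1 of 3 of Slc38a1. Array medians lay between 7.93 and 7.98. The tissue label was checked against markers of medium spiny neurons, which make up most striatal neurons. Of 16 genes on this list 15 had a probe set. All 15 were above the filter, with Arpp21 (14.7) and Penk (14.4) the brightest, as were 10746 of all 14217 genes. The check is one for striatum and does not tell the shell from other striatal tissue. Water animals 17, 19 and 20 stood apart, with means over that list of 11.89, 12.14 and 11.57, where the ethanol animals lay between 12.38 and 13.08 and the other water animals between 12.70 and 13.06. The 3′ minus 5′ value of the actin and Gapdh control probe sets is a measure of RNA integrity, and a higher value points to less intact RNA. It averaged 1.21 ± 0.12 in ethanol and 1.40 ± 0.22 in water (SD, n = 10 each, permutation test, two-sided p = 0.0218).

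No transporter or glutamine cycle probe set passed the test between ethanol and water animals. Of 15 tested, 0 rose and 0 fell, with adjusted p-values between 0.38 and 0.995 (limma, Benjamini-Hochberg over 20695 probe sets). Over all probe sets tested 0.0966% passed, so 0 of 15 is near the background. At an unadjusted p below 0.05, 1 of the 15 passed, and 12.1% of all probe sets did. The differences were positive for 11 probe sets and negative for 4, against 10347 and 10348 over all probe sets. By the brightest probe set of each gene, they were positive for 4 genes and negative for 3. The median absolute difference was 0.063 in the member probe sets and 0.058 over all probe sets. Among the brightest probe sets of the 7 genes, the 95% intervals reached at the widest from a 0.869-fold level (Glul) to a 1.23-fold level (Slc1a2) in ethanol relative to water. In tissue of mixed cells, fewer cells of a type and less RNA per cell cannot be told apart.

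**Figure D1:**
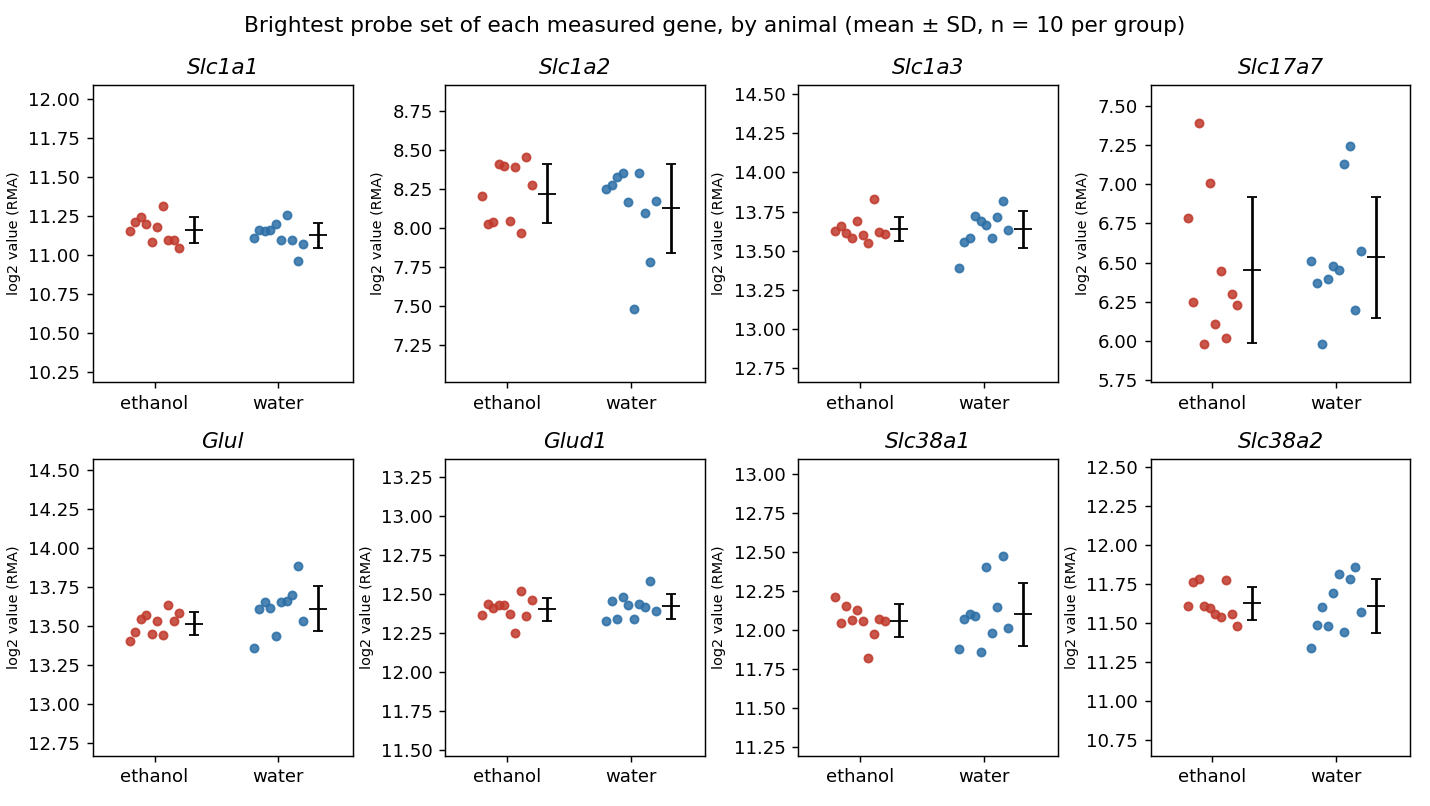
Log2 RMA values (y axis) of the brightest probe set of each of the 8 genes with a probe set, 1 point per animal, with ethanol left of water and the mean ± SD beside the points (n = 10 per group). All panels have the same height in log2 units, and the groups overlap in each.

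Slc1a3 encodes GLAST, a glutamate transporter of astrocytes. Its brightest probe set (1368565_at) lay at 13.55, 13.62 and 13.83 (lowest, median and highest) in ethanol animals, and at 13.39, 13.65 and 13.82 in water animals. The groups overlapped, and ethanol animal 8 and water animal 20 were the highest. The difference was 0.00098 ± 0.047 (SE, 95% interval -0.096 to 0.098, adjusted p = 0.995, limma). The other Slc1a3 probe sets varied more between animals. 1388064_a_at averaged 9.83 ± 0.21 in ethanol and 9.67 ± 0.26 in water (SD, n = 10 each), a difference of 0.17 (interval -0.039 to 0.37, limma adjusted p = 0.49). 1371130_at averaged 8.82 ± 0.33 in ethanol and 8.62 ± 0.45 in water, a difference of 0.20 (interval -0.14 to 0.54). Water animal 20, which was near the top on the brightest probe set, was the lowest of all animals on 1371130_at, at 7.65.

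Slc1a2 encodes GLT-1, which carries most glutamate uptake in the forebrain and is made mainly by astrocytes. Its 2 probe sets averaged 8.17 and 7.30 over all arrays, where the array medians lay between 7.93 and 7.98. Its brightest probe set (1369693_a_at) lay at 7.97, 8.24 and 8.45 (lowest, median and highest) in ethanol animals, and at 7.48, 8.21 and 8.35 in water animals. The groups overlapped, and water animals 17 (7.48) and 20 (7.78) were below every other animal. The difference was 0.095 ± 0.10 (SE, interval -0.11 to 0.30, limma adjusted p = 0.701). Its sign turned without water animals 17, 19 and 20, at -0.051 (adjusted p = 0.823). The other Slc1a2 probe set (1369694_at) was the 1 member with an unadjusted p below 0.05. It lay at 7.17, 7.38 and 7.54 in ethanol animals, and at 7.04, 7.23 and 7.50 in water animals, and 8 of 10 ethanol animals were above the water mean. Its difference of 0.13 ± 0.056 (SE), or 1.09-fold (interval 1.01 to 1.19), did not pass (limma adjusted p = 0.38). Without water animals 17, 19 and 20 it was 0.10 (limma unadjusted p = 0.105). With the astrocyte or medium spiny neuron list mean as a term the unadjusted p was 0.075 and 0.083 (limma). Without water animals 12 and 13 the unadjusted p was 0.00355, and with array weights 0.00525, and neither passed (limma adjusted p = 0.235 and 0.248).

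Slc1a1 encodes EAAC1, the neuronal transporter, which also carries cysteine. Its brightest probe set (1370367_at) lay at 11.05, 11.17 and 11.32 (lowest, median and highest) in ethanol animals, and at 10.96, 11.13 and 11.26 in water animals. The groups overlapped, and the difference was 0.036 (interval -0.047 to 0.12, limma adjusted p = 0.714). The other (1387932_at) lay at 10.43, 10.55 and 10.69 in ethanol animals, and at 10.40, 10.50 and 10.61 in water animals. On it 3 of 10 ethanol animals exceeded the highest water animal (10.606), at 10.612, 10.610 and 10.690. The difference was 0.075 ± 0.038 (SE, interval -0.0031 to 0.15, limma adjusted p = 0.428).

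Glul encodes glutamine synthetase, the astrocytic enzyme that makes glutamine from glutamate and ammonia. Its brightest probe set (1367632_at) lay at 13.41, 13.53 and 13.64 (lowest, median and highest) in ethanol animals, and at 13.36, 13.63 and 13.88 in water animals. The ethanol values lay inside the water range, and 9 of 10 ethanol animals were below the water mean. The difference was -0.095 ± 0.052 (SE), or 0.936-fold with an interval of 0.869 to 1.01 (limma adjusted p = 0.462). Without water animals 17, 19 and 20 it was -0.037, and without water animals 12 and 13 it was -0.13 (limma adjusted p = 0.802 and 0.339). The other Glul probe sets differed by -0.0088 (1386870_at, interval -0.15 to 0.13) and 0.024 (1367633_at, interval -0.22 to 0.27). Water animal 20 was the highest of all animals on all 3 Glul probe sets.

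Glud1 encodes glutamate dehydrogenase, the mitochondrial enzyme that interconverts glutamate and oxoglutarate. Its brightest probe set (1370200_at) lay at 12.25, 12.42 and 12.52 (lowest, median and highest) in ethanol animals, and at 12.33, 12.42 and 12.58 in water animals. The groups overlapped, and the difference was -0.017 ± 0.038 (SE, interval -0.097 to 0.063, limma adjusted p = 0.869). The other probe set (1387878_at) differed by 0.063 (interval -0.050 to 0.18, limma adjusted p = 0.631).

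Slc38a1 and Slc38a2 encode SNAT1 and SNAT2, sodium-coupled carriers of glutamine and other neutral amino acids. The brightest Slc38a1 probe set (1372921_at) lay at 11.82, 12.06 and 12.21 (lowest, median and highest) in ethanol animals, and at 11.86, 12.08 and 12.47 in water animals. Water animals 17 (12.40) and 20 (12.47) were above every other animal. The difference was -0.043 ± 0.070 (SE, interval -0.19 to 0.10, limma adjusted p = 0.816). The second Slc38a1 probe set (1370409_at) differed by 0.075 (interval -0.097 to 0.25), and the third (1390559_at), below the filter, by -0.031 (interval -0.18 to 0.12). Slc38a2 had 1 probe set (1370286_at), at 11.48, 11.60 and 11.78 in ethanol animals, and at 11.34, 11.59 and 11.86 in water animals. Its lowest and highest animals were both in the water group, and the difference was 0.018 ± 0.063 (SE, interval -0.11 to 0.15, limma adjusted p = 0.921).

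Slc17a7 encodes VGLUT1, which loads glutamate into synaptic vesicles of cortical and hippocampal neurons. Its probe sets were below the filter, and their values come from a fit without it. The brighter (1368987_at) lay at 5.98, 6.27 and 7.40 (lowest, median and highest) in ethanol animals, and at 5.98, 6.46 and 7.24 in water animals. Both groups covered nearly the same range, and the difference was -0.082 ± 0.17 (SE, interval -0.44 to 0.28, limma adjusted p = 0.89). The other (1368986_at) differed by -0.011 (interval -0.12 to 0.10).

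**Figure D2:**
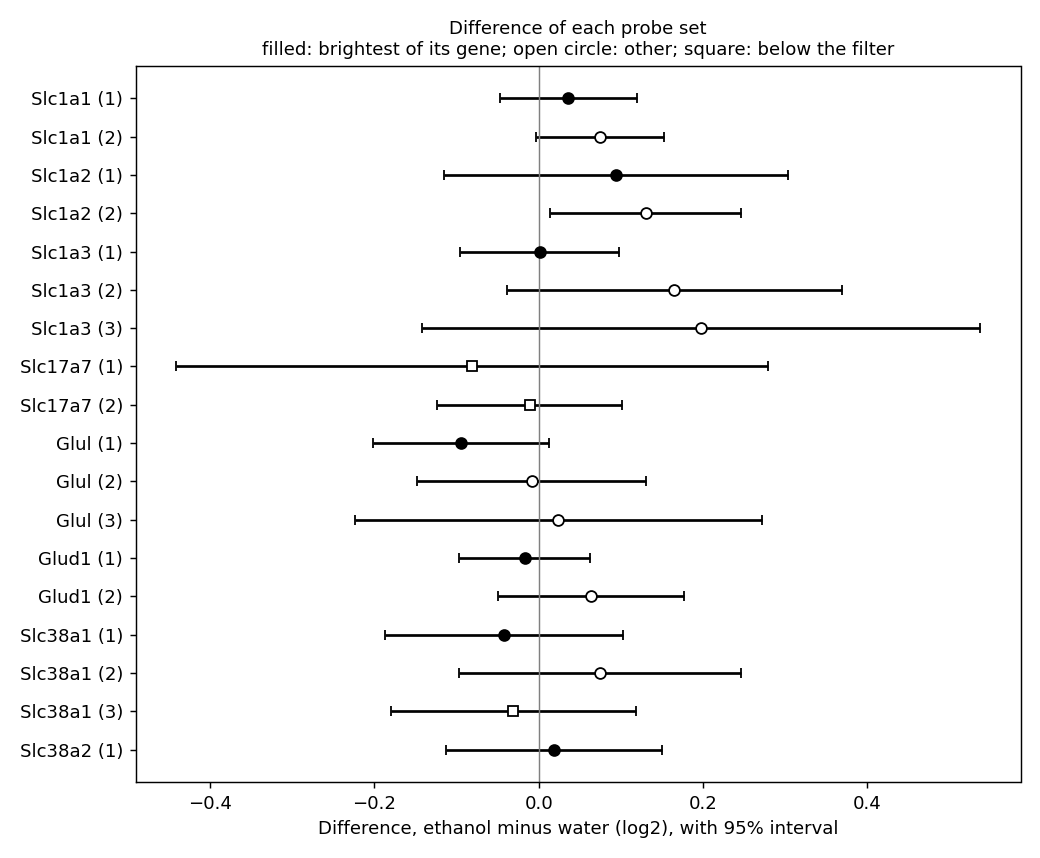
Difference between ethanol and water animals on the log2 scale (x axis) for each of the 18 probe sets (y axis, gene with the rank of the probe set by mean level), with its 95% interval. Filled circles are the brightest probe set of a gene, open circles the others and squares the 3 probe sets below the filter, and the unadjusted interval leaves out 0 for 1 of the 18, the second of Slc1a2.

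Probe sets of a gene were then compared directly, as the difference between both in ethanol against that in water. Of 10 such pairs none passed (permutation tests, 100000 resamples, two-sided). The smallest unadjusted p-values were 0.0436 for the Glud1 pair and 0.0647 for the brighter Slc1a3 pair, with an adjusted p of 0.324 for both. The difference of differences was -0.081 for Glud1 and -0.16 for Slc1a3, brightest minus other.

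Whether probe sets of a gene followed each other from animal to animal was examined on values with the group mean removed (permutation within groups, two-sided, adjusted over 10 pairs). Of these, 3 passed by both Pearson's r and Spearman's rho. The Glul probe sets 1386870_at and 1367633_at had r = 0.88, rho = 0.82, adjusted p = 1e-04 for r and 0.0002 for rho. The Glud1 pair had r = 0.75, rho = 0.77, adjusted p = 0.001 for r and 0.0015 for rho. The Slc1a3 probe sets 1368565_at and 1388064_a_at had r = 0.65, rho = 0.65, adjusted p = 0.0107 for r and 0.0105 for rho. Without the 2 arrays farthest from the median of the dimmer probe set, r was 0.79, 0.58 and 0.55 in these 3 pairs. All 3 passed again without water animals 17, 19 and 20, at r = 0.81, 0.63 and 0.71. The brightest Glul probe set had r = 0.45 and 0.32 with the other Glul probe sets (rho = 0.14 and 0.09), and the Slc1a1 pair r = -0.03 (rho = -0.06), none of which passed. Slc1a3 probe sets 1368565_at and 1371130_at had r = -0.50 and rho = -0.28 (adjusted p = 0.0831 for r and 0.408 for rho). The Slc1a2 pair had r = 0.49 and rho = 0.39 and did not pass (adjusted p = 0.0831 for r and 0.247 for rho).

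The 3′ minus 5′ control value moved with several of these probe sets, in a family of 15 relations chosen after values were seen (group-centred, permutation within groups, two-sided). By Pearson's r and by Spearman's rho 5 passed, all negative, with lower probe set values where the control value was higher. 1388064_a_at of Slc1a3 had r = -0.85, rho = -0.87, adjusted p = 0.0003 for r and 0.00015 for rho. 1367633_at of Glul had r = -0.75, rho = -0.68, adjusted p = 0.00292 for r and 0.006 for rho, and 1387878_at of Glud1 had r = -0.72, rho = -0.74, adjusted p = 0.0032 for r and 0.00322 for rho. The brightest Slc1a3 probe set had r = -0.59, rho = -0.65, adjusted p = 0.0357 for r and 0.0189 for rho, and 1386870_at of Glul had r = -0.58, rho = -0.63, adjusted p = 0.0357 for r and 0.0142 for rho. In that order, r was -0.85, -0.86, -0.80, -0.37 and -0.80 within ethanol animals, and -0.87, -0.72, -0.70, -0.67 and -0.51 within water animals. Without the 2 arrays farthest from the median of the control value (water 12 and water 18) r was -0.81, -0.75, -0.69, -0.46 and -0.52. The brightest Glul probe set (r = -0.06, rho = 0.01) and the Slc1a2 probe sets (r = -0.11 and 0.27, rho = 0.02 and 0.18) did not pass. With the control value as a term, the sign of the difference turned for 4 of these 5, at -0.061 and -0.065 for 1388064_a_at and 1368565_at of Slc1a3, -0.22 for 1367633_at of Glul and -0.036 for 1387878_at of Glud1. It also turned for Slc38a2, at -0.022, and none of the values that turned passed (limma adjusted p between 0.681 and 0.941). Beyond that fit, the part of RNA integrity in the members' values was not tested.

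The SD was larger in the water group for 12 of 15 member probe sets, and for 81.3% of all probe sets. Water animal 20 was the highest animal on 7 of the 15 and the lowest on 3, and water animal 12 the lowest on 5. Both arrays were outlying over all tested probe sets. Their median correlation with the other arrays was 0.972 and 0.982, where the ethanol arrays lay between 0.990 and 0.994. How often they were extreme over all probe sets was not counted, so these counts are not particular to the members. Without water animals 17, 19 and 20 the water SD was the larger for 7 of 15 member probe sets and for 64.9% of all.

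The brightest probe sets were next set beside the means of cell type marker lists in the same animals, with the group mean removed and permutation within groups. Of 35 relations (7 genes, 5 lists) 11 passed by Pearson's r, and 1 of them also by Spearman's rho. That was Slc1a2 with medium spiny neuron markers (r = 0.79, rho = 0.77, adjusted p = 0.0098 for r and 0.0035 for rho). Its r was 0.58 within ethanol animals and 0.86 within water animals. It was 0.57 without the 2 arrays farthest from the median of the list mean (water 17 and water 20). It was 0.56 without water animals 17, 19 and 20 and did not pass (17 arrays, adjusted p = 0.236). With the mean of both Slc1a2 probe sets it passed by r and not by rho (r = 0.70, rho = 0.60, adjusted p = 0.0273 for r and 0.0898 for rho), and 0 of 35 relations then passed by rho. The brightest Slc1a2 probe set ran against the astrocyte list (r = -0.61, rho = -0.47, adjusted p = 0.037 for r and 0.167 for rho), with r = -0.29 without water animals 17 and 20 and -0.39 within ethanol animals. Which Slc1a2 transcripts, or which cells, this probe set reports was not tested.

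The brightest Slc1a3 probe set followed the astrocyte list (r = 0.73, rho = 0.61, adjusted p = 0.0098 for r and 0.0742 for rho). Its r was 0.92 within ethanol animals, 0.66 within water animals, 0.66 without water animals 17 and 20, and 0.62 without 17, 19 and 20 (adjusted p = 0.0717). The sign turned with the mean of all 3 Slc1a3 probe sets (r = -0.29, rho = -0.22, adjusted p = 0.554 for r and 0.638 for rho, r = 0.35 within ethanol animals and -0.50 within water animals), so the relation was seen for the brightest probe set and not for the mean of the 3. Glud1 followed the list too (r = 0.60, rho = 0.48, adjusted p = 0.0292 for r and 0.159 for rho), at r = 0.61 without water animals 17 and 20. The relations of Glul (r = 0.64, rho = 0.40, adjusted p = 0.0301 for r and 0.339 for rho), Slc38a1 (r = 0.72, rho = 0.57, adjusted p = 0.0126 for r and 0.0873 for rho) and Slc38a2 (r = 0.64, rho = 0.52, adjusted p = 0.0259 for r and 0.15 for rho) with that list were weaker without water animals 17 and 20, at r = 0.38 for Glul, 0.37 for Slc38a1 and 0.40 for Slc38a2. Within ethanol animals r was 0.07 for Glul, 0.16 for Slc38a1 and 0.57 for Slc38a2.

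The brightest Slc38a1 probe set moved with markers of cholinergic neurons (r = 0.59, rho = 0.59, adjusted p = 0.0259 for r and 0.0742 for rho), at r = 0.85 within ethanol animals, 0.50 within water animals and 0.57 without the 2 farthest arrays. Without water animals 17, 19 and 20, 2 of 35 relations passed, both of Slc38a1. These were the one with cholinergic markers (r = 0.79, rho = 0.75, adjusted p = 0.0133) and the one with oligodendrocyte markers (r = -0.74, rho = -0.75, adjusted p = 0.0397), which was r = 0.11 over all arrays. With the mean of its probe sets, the relation of Slc38a1 to cholinergic markers did not pass (r = 0.48, rho = 0.43, adjusted p = 0.0997 for r and 0.204 for rho), nor did it without water animals 17, 19 and 20 (r = 0.46, adjusted p = 0.45). The other relations that passed by r were Slc1a2 with oligodendrocyte markers (r = -0.65, rho = -0.64, adjusted p = 0.0126 for r and 0.0691 for rho, r = -0.47 without the 2 farthest arrays), Slc38a2 with medium spiny neuron markers (r = -0.73, rho = -0.58, adjusted p = 0.0098 for r and 0.0873 for rho, r = -0.54 without them), and Slc38a2 with oligodendrocyte markers (r = 0.63, rho = 0.52, adjusted p = 0.0259 for r and 0.15 for rho, r = 0.52 without them). With gene means over probe sets, 3 of 35 relations passed by r without water animals 17, 19 and 20. Slc38a1 passed with medium spiny neuron markers (r = 0.83, adjusted p = 0.0014), where r was -0.05 over all arrays. It also passed with oligodendrocyte markers (r = -0.65, adjusted p = 0.0492), and Glud1 passed with astrocyte markers (r = 0.69, adjusted p = 0.0492).

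Between ethanol and water the marker lists themselves held no gene that passed: 0 of 16 astrocyte, 0 of 15 medium spiny neuron, 0 of 8 cortical excitatory, 0 of 6 cholinergic, 0 of 12 oligodendrocyte, 0 of 12 microglial and 0 of 9 endothelial markers (limma). At an unadjusted p below 0.05 these lists had 0, 1, 0, 0, 1, 2 and 2 genes, and 10% of all 10746 genes lay below it. Past the threshold were 0.0931% of all genes. All 15 medium spiny neuron markers had positive differences and all 12 oligodendrocyte markers negative ones. Positive and negative were 4 and 12 astrocyte, 4 and 4 cortical excitatory, 5 and 1 cholinergic, 2 and 10 microglial, and 7 and 2 endothelial markers. Markers of a list were measured in the same animals, so their signs are not independent. The list means were not tested between the groups. Over all genes 5379 differences were positive and 5367 negative. The mean of the medium spiny neuron list was lowest in water animals 20 (11.57), 17 (11.89) and 19 (12.14). In the other water animals it lay between 12.70 and 13.06, and in ethanol animals between 12.38 and 13.08. The astrocyte list mean lay between 11.79 and 12.01 in ethanol and between 11.79 and 12.19 in water, with Gja1 (14.5) and S100b (14.1) its brightest genes. The part of tissue composition in the members' values was not tested beyond the fits with a list mean as a term.

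**Figure D3:**
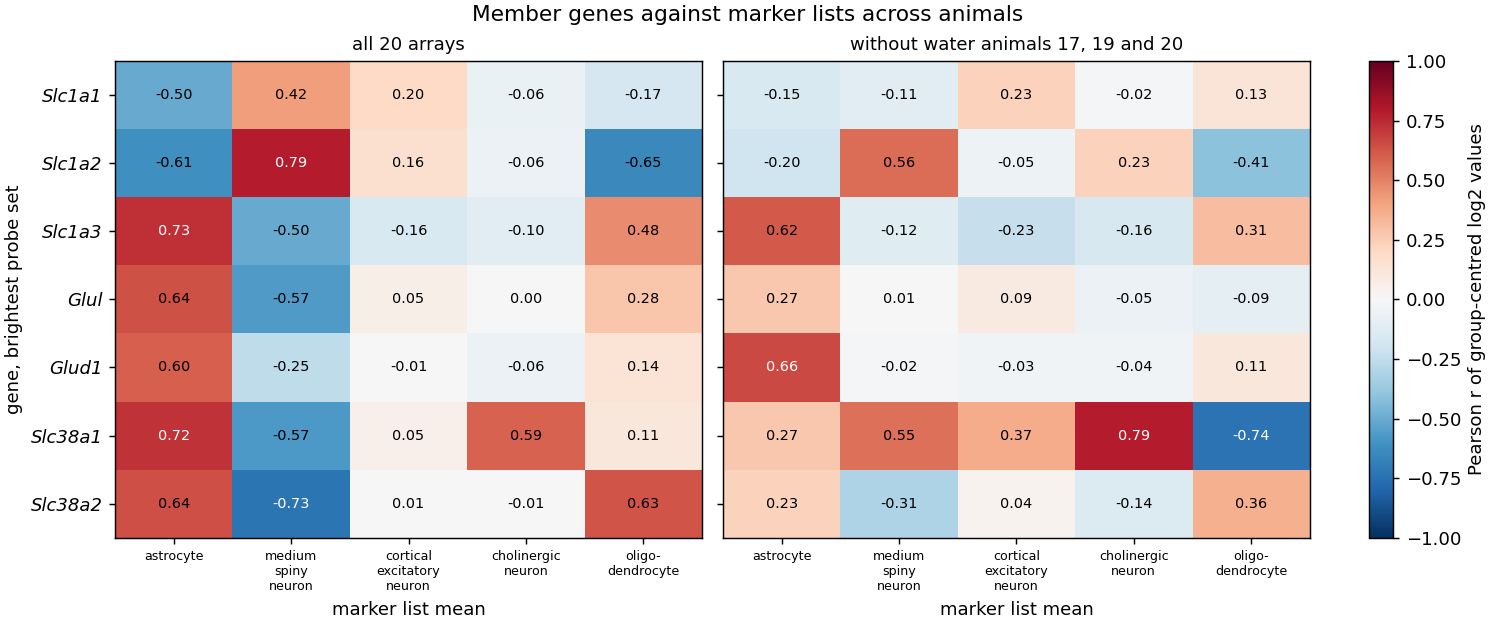
Pearson r of group-centred log2 values between the brightest probe set of 7 genes (rows) and the mean of 5 marker lists (columns), over all 20 arrays on the left and without water animals 17, 19 and 20 on the right. Colour runs from blue (-1) to red (1), and Slc1a3 with the astrocyte list is positive in both panels for this probe set (0.73 and 0.62).

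Among the members 9 of 21 pairs passed by Pearson's r, and 1 of them also by Spearman's rho (group-centred, permutation within groups). That pair was Slc1a2 and Slc38a2, which ran in opposite directions (r = -0.75, rho = -0.70, adjusted p = 0.0042 for r and 0.0233 for rho). Its r was -0.70 within ethanol animals and -0.77 within water animals. Without the 2 arrays farthest from the median of the second gene of the pair, here Slc38a2 (water 12 and water 20), it was -0.75. Water animal 17, the lowest for Slc1a2, was not left out by this choice. Slc1a3 and Slc38a2 ran together (r = 0.72, rho = 0.61, adjusted p = 0.00945 for r and 0.1 for rho), at r = 0.56 within ethanol animals, 0.78 within water animals and 0.52 without the farthest arrays. Slc1a3 and Glud1 also ran together (r = 0.69, rho = 0.49, adjusted p = 0.0151 for r and 0.155 for rho, r = 0.58 without the farthest arrays). The other 6 pairs that passed by r lay between -0.61 and 0.62, and between -0.34 and 0.41 without the farthest arrays. Without water animals 17, 19 and 20, 0 of 21 pairs passed, and r was -0.59, 0.62 and 0.68 in these 3 (adjusted p = 0.0924, 0.0924 and 0.0708).

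The 250 bases before the transcription start of Slc1a3, Slc38a2 and Slc1a2 are shown because the levels of these members ran together or against each other. Sequences are from RefSeq (build GRCr8), 5′ to 3′, for the first start listed, and capitals mark a motif. The TATA box (TATAAA), the CCAAT box and the GC box (GGGCGG) were searched on both strands, and the printed windows hold no overlapping matches.
Slc1a3, chr2:59557809-59558058, minus strand: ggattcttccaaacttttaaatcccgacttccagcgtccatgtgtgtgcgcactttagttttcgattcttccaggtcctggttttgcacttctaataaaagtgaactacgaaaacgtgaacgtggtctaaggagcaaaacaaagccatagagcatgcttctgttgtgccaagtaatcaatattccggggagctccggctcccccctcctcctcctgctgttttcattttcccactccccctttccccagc
Slc38a2, chr7:129742620-129742869, minus strand: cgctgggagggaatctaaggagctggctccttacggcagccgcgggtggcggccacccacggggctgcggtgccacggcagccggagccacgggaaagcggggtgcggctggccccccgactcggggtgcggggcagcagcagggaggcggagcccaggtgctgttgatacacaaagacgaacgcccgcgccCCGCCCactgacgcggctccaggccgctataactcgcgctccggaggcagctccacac
Slc1a2, chr3:109459859-109460108, plus strand: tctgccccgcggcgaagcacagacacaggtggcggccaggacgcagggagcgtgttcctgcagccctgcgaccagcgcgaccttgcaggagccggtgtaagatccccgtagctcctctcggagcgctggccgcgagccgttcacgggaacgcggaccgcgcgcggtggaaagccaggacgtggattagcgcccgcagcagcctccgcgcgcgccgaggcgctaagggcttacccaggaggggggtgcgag
Slc38a2 held 1 GC box, on the reverse strand, and Slc1a3 and Slc1a2 held none of the 3 motifs in these windows. Of 33469 promoter entries, 12.9% held the TATA box, 34.0% the CCAAT box and 30.5% the GC box in a window of the same length. Among the other members, the windows of Glud1 and Slc17a7 held 2 and 3 GC boxes, that of Slc38a1 1 CCAAT box, and the Glul starts 1 and 3 CCAAT boxes with 1 GC box each.

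Genes whose group-centred pattern over the 20 arrays was most like that of a member were picked from 10739 other genes, as a description. For Slc1a3 they were Gprc5b (r = 0.87), Abhd3 (r = 0.86) and Aqp4 (r = 0.84), the water channel of astrocytes and itself on the astrocyte list. For Slc1a2 they were Oaf, Rfc4 and Senp2 (r = 0.90, 0.90 and 0.89). For Glul they were Itprid2, Tmsb15b2 and Arhgef40 (r = 0.88, 0.87 and 0.87). Without water animals 17, 19 and 20 r lay between 0.86 and 0.90 for the Slc1a3 genes, 0.73 and 0.77 for those of Slc1a2, and 0.76 and 0.79 for those of Glul.

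The brighter Slc17a7 probe set, although below the filter, ran closely with Cck, the neuropeptide cholecystokinin (r = 0.96, rho = 0.91, and r = 0.97 without water animals 17, 19 and 20). Ccn3 (r = 0.86) and Neurod2 (r = 0.84), a transcription factor of cortical excitatory neurons and a marker on that list, came next. Cck lay at 8.29, 8.76 and 11.20 (lowest, median and highest) in ethanol animals, and at 8.25, 9.08 and 11.02 in water animals. Both groups held low and high animals, and the difference was -0.0074 ± 0.39 (SE, limma adjusted p = 0.995). The 4 highest Slc17a7 values were those of ethanol animals 3 (7.40) and 5 (7.01) and water animals 19 (7.24) and 18 (7.13). In a family of 10 relations chosen after these values were seen, this probe set moved with the cortical excitatory list by r but not by rho (r = 0.85, rho = 0.59, adjusted p = 0.0002 for r and 0.0747 for rho, permutation). Its r was 0.92 within ethanol animals, 0.76 within water animals and 0.70 without the farthest arrays (ethanol 3 and water 19). The dimmer Slc17a7 probe set did not pass (r = 0.46, rho = 0.50, adjusted p = 0.166 for r and 0.15 for rho), and r between both Slc17a7 probe sets was 0.28 (rho = 0.24, permutation p = 0.246 for r and 0.328 for rho).

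**Figure D4:**
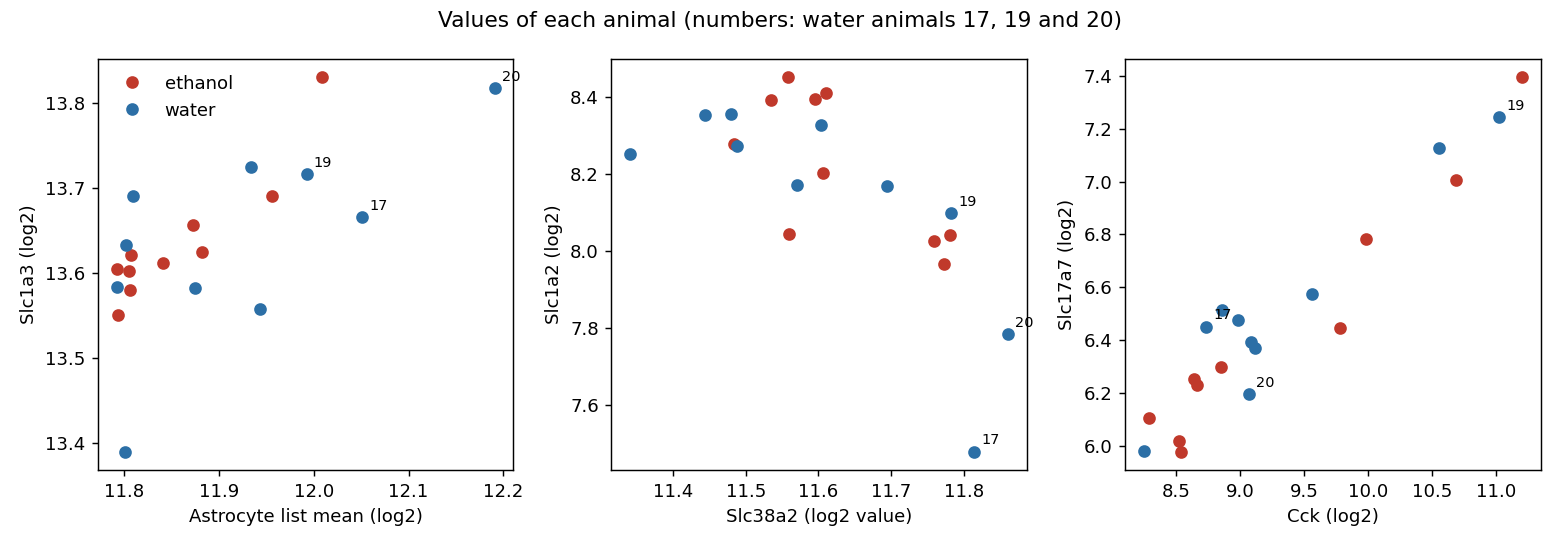
Log2 values of each animal for Slc1a3 against the astrocyte list mean (left), Slc1a2 against Slc38a2 (middle) and Slc17a7 against Cck (right), with ethanol animals in red, water animals in blue, and water animals 17, 19 and 20 numbered. Slc17a7 is higher where Cck is higher in both groups (r = 0.96), and water animals 17 and 20 are the lowest points for Slc1a2.

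Other genes of glutamate, glutamine and GABA handling were described from a list of 26, of which 24 had a probe set and 21 were above the filter. Of these, 0 rose, 0 fell and 21 did not pass, and 0.0931% of all 10746 genes passed. Differences were positive for 8 and negative for 13, with a median of -0.013, against 0.00016 over all genes. Pc, pyruvate carboxylase, which lets astrocytes make new glutamate from glucose, averaged 9.61 ± 0.07 in ethanol and 9.71 ± 0.09 in water (SD, n = 10 each), a difference of -0.10 (limma adjusted p = 0.351). Slc1a4, a neutral amino acid carrier of the same family as the glutamate transporters, averaged 9.16 ± 0.06 in ethanol and 9.24 ± 0.09 in water, a difference of -0.083 (limma adjusted p = 0.399). Arl6ip5, which binds EAAC1, differed by 0.055 (limma adjusted p = 0.488), and Slc7a11, the cystine-glutamate exchanger, by 0.11 (interval -0.046 to 0.27, limma adjusted p = 0.547). These were the 4 genes of smallest p on the list.

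The glutamine carrier Slc38a3 differed by -0.00032 (interval -0.080 to 0.079), and Gad1, which makes GABA from glutamate, by -0.038 (interval -0.14 to 0.060). Slc17a6 encodes VGLUT2, the vesicular transporter of thalamic and other subcortical neurons. It lay at 6.72, 7.54 and 8.30 (lowest, median and highest) in ethanol animals, and at 6.33, 7.43 and 9.98 in water animals. Water animals 17 (9.60), 19 (9.22) and 20 (9.98) were above every other animal. The difference was -0.35 ± 0.40 (SE, limma adjusted p = 0.716), and 0.38 without these 3 animals (adjusted p = 0.522).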

How the data were processed

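RNA from the accumbens shell of 20 rats was measured on 1-colour Affymetrix arrays, with cRNA labelled by a 3′ kit, per the labels' protocols. The authors deposited log2 values per probe set made with RMA, per the submitters' processing notes. RMA corrects background, normalizes between arrays and summarises probes, so a shift shared by most genes would not be seen and differences of dim probe sets are shrunk. For RMA and the chip definition, no version or name is given in the sources used here.

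In the platform's gene table, 20826 probe sets had 1 gene, 436 several and 9780 none, and 57 were controls. The 8 members with a probe set matched the RefSeq table (GRCr8) by identifier. Without controls and the dimmest 33.3%, 20695 probe sets were fitted with limma 3.58.1 in R 4.3.3 (two-sided, no covariates, Benjamini-Hochberg, threshold 0.05). The probe set of highest mean stood for a gene. Correlations used group-centred values and 100000 permutations within groups, whose smallest possible p is 1e-05 (numpy 2.4.6). Both were run on simulated data, drawn as independent normal noise with the same SD in both groups. Unlike the real data it held no outlying arrays, so it does not show how the tests act on these. The number of arrays limits the precision.

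Members, lists and tests were chosen with earlier results of these data known. Named are all members, the 4 pathway genes of smallest p with fixed partners (1 is not reported here), the 3 most alike genes for Slc1a2, Slc1a3, Glul and Slc17a7, and the brightest genes of marker lists. Alternatives changed the filter, normalization, variance model, weights, arrays, covariates, threshold and probe set choice.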

Additional observations from a re-analysis of the deposited data

Results flagged for a closer look

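6 values stood apart from the other animals of their group by Dixon's criterion, out of 60 groups of 10 tested, where chance gives about 1 in 20. The brightest Slc1a3 probe set was 13.83 in ethanol animal 8, with the nearest ethanol animal at 13.69. Glul probe set 1386870_at was 12.54 in water animal 20, with the nearest water animal at 12.22. Slc38a1 probe set 1390559_at, below the filter, was 6.17 in ethanol animal 2, with the nearest at 5.78. Arl6ip5 was 12.26 in water animal 17, with the nearest at 12.37, and Gad1 was 14.25 in ethanol animal 7, with the nearest at 14.37. The mean of the cortical excitatory neuron list was 10.20 in ethanol animal 3, with the nearest at 9.99.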

How the results depend on the processing

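Members and pathway genes had 0 probe sets past the threshold in every alternative run. Of 171 member values under 12 alternatives 144 kept their sign and 27 changed it (lowest limma adjusted p 0.235). Of 76 values of named pathway genes 64 kept their sign and 12 changed it (lowest limma adjusted p 0.336). Over all probe sets 20 passed, 10 with probe sets below the median left out, 38 with array weights, 50 without water animals 17, 19 and 20, 7 with the RNA integrity value (3′ minus 5′) as a term, 48 with the medium spiny neuron list mean as a term and 32 at a threshold of 0.1. Relations between members and marker lists that passed by r numbered 11, and 2 without water animals 17, 19 and 20. With gene means over probe sets 11 passed, 8 of them shared. Lost were Slc1a3 with astrocyte markers (r = -0.29) and Slc38a1 with astrocyte (r = 0.32) and cholinergic markers (r = 0.48). Gained were Slc1a1 with astrocyte (r = -0.75) and medium spiny neuron markers (r = 0.63) and Glul with medium spiny neuron markers (r = -0.62). The values that changed sign follow, none past the threshold, and the cause was not tested. Without the outlying arrays (water animals 12, 17 and 20), Slc1a2 1369693_a_at differed by -0.029, Slc1a3 1368565_at by -0.0041, Glul 1386870_at by 0.041, Slc38a1 1372921_at by 0.022, Slc38a3 by 0.033 and Slc17a6 by 0.16. Leaving out water animals 17, 19 and 20, Slc1a2 1369693_a_at differed by -0.051, Glul 1386870_at by 0.071, Slc38a1 1372921_at by 0.060, Slc38a3 by 0.018 and Slc17a6 by 0.38. With the medium spiny neuron list mean as a term, Slc1a2 1369693_a_at differed by -0.040, Slc1a3 1371130_at by -0.012, Glul 1386870_at by 0.067, Slc38a1 1372921_at by 0.023, Slc38a3 by 0.010 and Slc17a6 by 0.23. With array weights, Slc1a3 1368565_at differed by -0.020, Glul 1386870_at by 0.0025, Slc38a1 1372921_at by 0.0075, Slc38a3 by 0.025 and Slc17a6 by 0.054. Without water animals 12 and 13, Slc1a3 1368565_at differed by -0.040, Glul 1367633_at by -0.042 and Slc38a2 1370286_at by -0.030. With the RNA integrity value (3′ minus 5′) as a term, Slc1a3 1368565_at differed by -0.065, Slc1a3 1388064_a_at by -0.061, Glul 1367633_at by -0.22, Glud1 1387878_at by -0.036, Slc38a2 1370286_at by -0.022 and Slc38a3 by 0.037. With the astrocyte list mean as a term, Glul 1386870_at differed by 0.058, Glud1 1370200_at by 0.0094, Slc38a1 1372921_at by 0.026, Slc38a3 by 0.013 and Slc17a6 by 0.082. With gene means over probe sets, Glud1 differed by 0.023 and Slc38a1 by 0.016. With quantile normalization, Slc38a3 differed by 0.00030. No paired analysis was possible because the groups share no animal number. The labels give no batch, and RMA values do not show the signal above background.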
